A study of Drosophila melanogaster with 6 samples.

Results

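The genes examined here encode subunits of respiratory complex III, complex IV and ATP synthase, together with cytochrome c. They were taken from the deposited gene table by current symbol: every symbol that starts with UQCR, COX or ATPsyn, plus blw, levy, cype, ox, RFeSP, Cyt-c1, Cyt-c-p and Cyt-c-d. This gave 46 of 15682 genes. Of these, 31 are canonical subunit genes, namely 9 of complex III, 10 of complex IV and 12 of ATP synthase. The other 15 are paralogues, whose symbols end in L or L2, and Cyt-c-d. The symbol Cyt-c-p matched no identifier of the table in the name list used, so the main cytochrome c gene was not analysed here.

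Complex III passes electrons from ubiquinol to cytochrome c, and complex IV passes them from cytochrome c to oxygen. Both pump protons across the inner mitochondrial membrane, and ATP synthase uses the return of those protons to make ATP. Each of the 3 assemblies combines nuclear subunits with a few encoded by the mitochondrial genome. Flight muscle is among the tissues richest in these proteins, and in Drosophila many of the nuclear subunits have a duplicate gene used mainly in the testis.

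RNA was sequenced from the dissected fat body of female adults of Drosophila melanogaster, which were 7 to 10 days old and kept at 25 °C. In FB-Dp110DN flies the FB-GAL4 driver expressed a dominant-negative Dp110, a myc-tagged kinase with a defective ATP-binding domain, and FB-GAL4 flies carried the driver only. Both groups had the white Dahomey background, which carries Wolbachia, and each had 3 libraries of pooled fat bodies. The driver is described as constitutive and fat body specific, and its activity in other tissues was not analysed here. The comparison asks how lowered Dp110 signalling in the fat body changes expression of these subunits.

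Library totals ranged from 22607341 to 36870161 counts. Pi3K92E, the gene that encodes Dp110, had 892, 1246 and 343 CPM (counts scaled to library size) in FB-Dp110DN replicates 1, 2 and 3. In FB-GAL4 it had 81.0 to 94.1 CPM, so every library lay on the side of its label. Fat body markers, among them the yolk protein genes and apolpp, summed to between 26840 and 75399 CPM, with the lowest sum in replicate 3 of FB-GAL4. Testis markers were nearly absent, with 10 of 13 at or under 3 counts in every library. Replicate 3 of both groups stood apart from the other libraries. Its 22 muscle markers summed to 53721 CPM in FB-Dp110DN and 28969 CPM in FB-GAL4, against 9406 to 15194 CPM in the other libraries, and no muscle marker was under 138 counts anywhere. Genes of the mitochondrial genome took 17.1% and 12.3% of its counts, against 6.84% to 8.36%. Its 20 gut protease markers were low, with sums of 6509 and 6681 CPM against 15579 to 27288 CPM in the other libraries.

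All 31 canonical subunit genes had a higher estimate in FB-Dp110DN, and in each the FB-Dp110DN library was above the FB-GAL4 library of the same number in all 3 pairs. Over all tested genes, 53.6% had a higher estimate, 28.3% were higher in all 3 pairs and 27.7% were lower in all 3. The log2 fold changes of the canonical genes ran from 0.22 to 0.67 with a median of 0.56, against a median of 0.04 over all 10398 tested genes. Their mean CPM was 1.15 to 1.67 times that of FB-GAL4. The 3 assemblies had close medians, at 0.61 for complex III, 0.55 for complex IV and 0.53 for ATP synthase.

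By edgeR's quasi-likelihood test, in a model with a block for the replicate, no member passed an adjusted p of 0.05, and 0.0289% of all genes were called higher. The lowest adjusted p among the members, 0.153, was shared by 18 members and by 1299 genes in all. At an unadjusted p under 0.05 the test held 29 of 37 tested members, 27 of them canonical, and all 29 were higher in FB-Dp110DN. The share over all genes was 13.7% in that direction. Without the replicate block the count was 1 of 37. It was 30 of 37 without replicate 1, 4 of 37 without replicate 2 and 10 of 36 without replicate 3. In the last of these fits 13.1% of all genes were higher at that p. The share over all genes was not analysed for the others. DESeq2's Wald test, blocked likewise, gave 22 of 31 canonical genes and the paralogue COX7AL2 an adjusted p under 0.05. All 23 were higher, where 6.82% of all genes were called higher and 3.89% lower. The methods of the study call the libraries of a group biological repeats. Whether these came from separate cohorts beyond the preparation dates is not stated. The p-values of the blocked fits measure only the spread left in these libraries once the replicate is taken out.

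**Figure D1:**
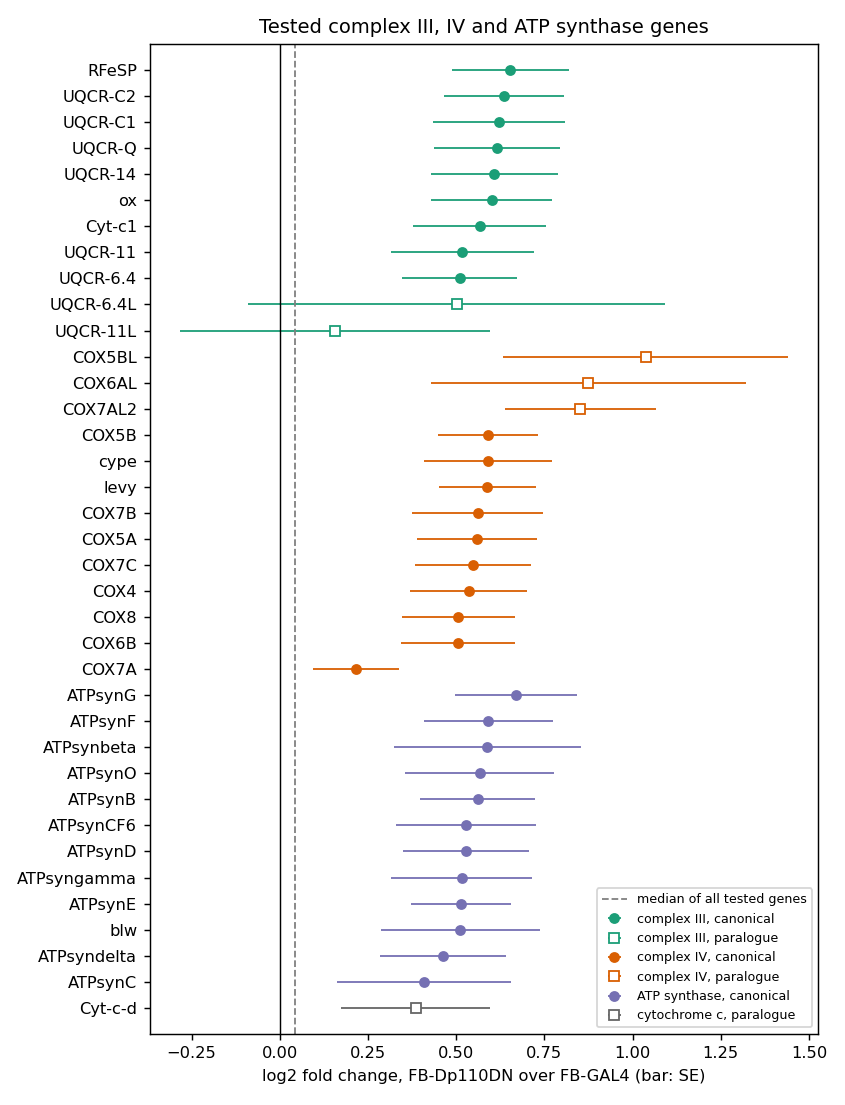
Log2 fold change of FB-Dp110DN over FB-GAL4 for the 37 tested members, with the standard error as a bar, filled circles for canonical genes and open squares for paralogues. The canonical genes sit between 0.22 and 0.67, and COX7A is the lowest of them; the dashed line marks the median of all tested genes at 0.04.

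In complex III, all 9 canonical genes had an unadjusted edgeR p under 0.05, and 7 passed the DESeq2 Wald test. RFeSP (FBgn0021906, arm 2L), the Rieske iron-sulfur protein that takes electrons from ubiquinol, stood at 440.3, 557 and 745 CPM in FB-Dp110DN replicates 1, 2 and 3. In FB-GAL4 it stood at 359.6, 304 and 430.0 CPM. RFeSP was thus the one canonical gene whose groups did not overlap, against 11.6% of all genes that were higher without overlap. The fitted difference of RFeSP was 0.65 (SE 0.17) on the log2 scale, with adjusted p-values of 0.153 in edgeR and 0.0101 in DESeq2.

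Cyt-c1 (FBgn0035600, arm 3L), the heme subunit that hands electrons on to cytochrome c, had 411, 540.1 and 949 CPM in FB-Dp110DN and 383, 321 and 528 CPM in FB-GAL4. Replicate 3 of FB-GAL4 lay above replicate 1 of FB-Dp110DN, and the groups overlapped. The fitted log2 fold change of Cyt-c1 was 0.57 (SE 0.19). The core proteins UQCR-C1 and UQCR-C2, which form the matrix part of the complex, behaved alike. UQCR-C1 had 582, 742 and 1417 CPM against 498, 469 and 719 CPM in FB-GAL4. UQCR-C2 had 493, 646 and 1123 CPM against 407, 379 and 619 CPM. In both genes the highest library was replicate 3 of FB-Dp110DN and the lowest was replicate 2 of FB-GAL4. Their log2 fold changes were 0.62 (SE 0.19) and 0.64 (SE 0.17).

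The small subunits gave similar differences. The gene ox, which encodes a small membrane subunit, had 107, 131 and 222 CPM in FB-Dp110DN and 95.8, 78.4 and 119 CPM in FB-GAL4, and its log2 fold change was 0.60 (SE 0.17). UQCR-14 and UQCR-Q had log2 fold changes of 0.61 and 0.62. UQCR-11, the acidic hinge subunit, and UQCR-6.4 were the lowest of the complex at 0.52 (SE 0.20) and 0.51 (SE 0.16), and these 2 genes did not pass the DESeq2 Wald test, with adjusted p-values of 0.0941 and 0.0538. Within complex III, UQCR-11 also differed most between replicate pairs, with log2 differences of 0.11, 0.36 and 1.08.

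In complex IV, 9 of 10 canonical genes had an unadjusted edgeR p under 0.05 and passed the DESeq2 Wald test, and COX7A did neither. The smallest p-value of the 37 tested genes belonged to levy (FBgn0034877, arm 2R), the fly subunit 6A. It had 228, 263 and 427 CPM in FB-Dp110DN and 179.5, 158 and 267 CPM in FB-GAL4. The control library of replicate 3 was second only to that of FB-Dp110DN, so the groups overlapped. The log2 fold change of levy was 0.59 (SE 0.14), with an unadjusted p of 0.00500 and an adjusted p of 0.153 in edgeR and 0.0101 in DESeq2.

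COX5B (FBgn0031830, arm 2L), a zinc-binding subunit on the matrix side, had 178, 202 and 343 CPM against 143, 119 and 212 CPM in FB-GAL4. The fit gave COX5B a log2 fold change of 0.59 (SE 0.14), and the pairs gave 0.31, 0.77 and 0.70. COX5A, also on the matrix side, had 464, 541 and 1004 CPM against 409, 332 and 582 CPM, a log2 fold change of 0.56 (SE 0.17). In both genes the FB-GAL4 library of replicate 3 exceeded replicates 1 and 2 of FB-Dp110DN. COX4, a nuclear subunit that contacts the catalytic core, had 485, 561 and 901 CPM against 425, 358 and 528 CPM, and a log2 fold change of 0.54 (SE 0.17). The gene cype, which encodes subunit 6C, had 159, 195 and 312 CPM against 146, 119.5 and 162 CPM, and a log2 fold change of 0.59 (SE 0.18). COX6B, COX7B, COX7C and COX8 had log2 fold changes between 0.51 and 0.56.

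COX7A (FBgn0040529, arm 3R), a small membrane subunit, had the smallest difference of the canonical genes. It stood at 188, 179.5 and 168 CPM in FB-Dp110DN and 175, 158 and 132 CPM in FB-GAL4. The estimate for COX7A was a log2 fold change of 0.22 (SE 0.12), with an unadjusted p of 0.125 and an adjusted p of 0.287 by edgeR. The range of its 6 libraries was narrow, and replicate 1 of FB-GAL4 exceeded replicate 3 of FB-Dp110DN. The other 9 canonical genes of the complex were at 0.51 or above. COX7A was also the one canonical gene that was lower in replicate 3 than in the mean of replicates 1 and 2, by a log2 difference of -0.34 in FB-GAL4 and -0.13 in FB-Dp110DN. The other 30 canonical genes were higher there in both groups, by at least 0.30 and 0.59.

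Its paralogue COX7AL2 (FBgn0085201, arm 2L) was higher in replicate 3, unlike COX7A and like the rest of the canonical genes. The log2 difference from the mean of replicates 1 and 2 was 2.19 in FB-Dp110DN and 1.58 in FB-GAL4. COX7AL2 had 49.3, 64.0 and 257 CPM in FB-Dp110DN and 41.7, 30.99 and 107 CPM in FB-GAL4. Replicate 3 was the highest library of each group. In counts, COX7AL2 stood at 0.261, 0.356 and 1.53 times COX7A in FB-Dp110DN and at 0.239, 0.196 and 0.815 times in FB-GAL4. The ratio was therefore higher in FB-Dp110DN within each pair, and it was above 1 in a single library, replicate 3 of FB-Dp110DN. The log2 fold change of COX7AL2 was 0.85 (SE 0.21), with an adjusted p of 0.153 in edgeR and 0.0101 in DESeq2. Without replicate 3 it was 0.65 (SE 0.23), and its edgeR adjusted p of 0.0614 was the lowest of any member in that fit. The ratio was singled out after its values were seen and was not tested. It moved with the muscle marker sum, whose part in it was not tested.

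**Figure D2:**
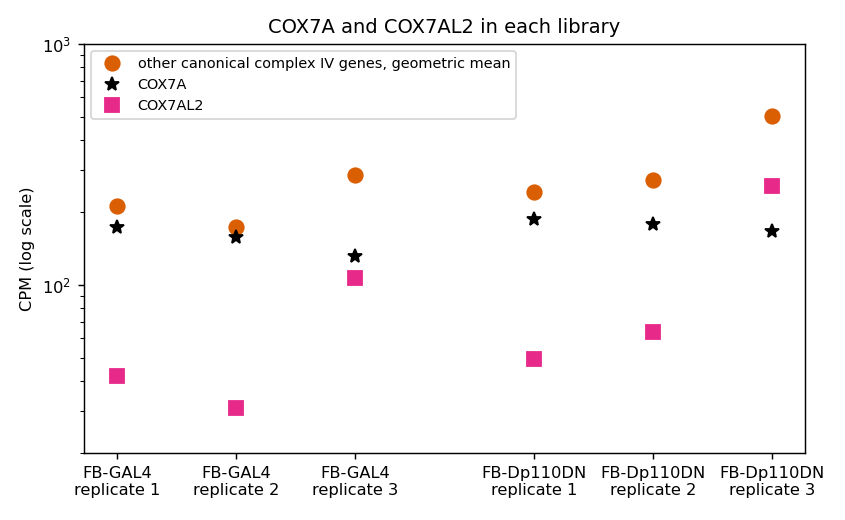
CPM on a log scale of COX7A, COX7AL2 and the geometric mean of the other 9 canonical complex IV genes in each of the 6 libraries. COX7A stays between 132 and 188 CPM, whereas COX7AL2 runs from 30.99 to 257 CPM with its 2 highest values in replicate 3.

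In ATP synthase, 9 of 12 canonical genes had an unadjusted edgeR p under 0.05 and 6 passed the DESeq2 Wald test. The catalytic head is built from the alpha subunit, blw, and the beta subunit, ATPsynbeta. ATPsynbeta (FBgn0010217, chromosome 4) had 2768, 2961 and 8089 CPM in FB-Dp110DN and 2536, 1986 and 3875 CPM in FB-GAL4. The gene blw (FBgn0011211, arm 2R) had 1425, 1591 and 4900.2 CPM against 1214, 1266 and 2487 CPM. In both, replicate 3 of each group lay far above its other libraries. The log2 fold changes were 0.59 (SE 0.26) and 0.51 (SE 0.23), with unadjusted edgeR p-values of 0.0669 and 0.0628. ATPsynbeta passed the DESeq2 Wald test at an adjusted p of 0.0421 and blw did not, at 0.0576.

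ATPsynC (FBgn0039830, arm 3R), the proton-carrying subunit of the membrane ring, had the smallest log2 fold change of the enzyme, 0.41 (SE 0.25). It had 1367, 1431 and 5223 CPM against 1328, 1234 and 2649 CPM in FB-GAL4. In replicates 1 and 2 the pairs thus differed by only 0.04 and 0.21 on the log2 scale, against 0.98 in replicate 3. Its unadjusted edgeR p was 0.147.

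The 3 smallest p-values of the enzyme belonged to ATPsynG, ATPsynE and ATPsynB. ATPsynG (FBgn0010612, arm 2L), a small membrane subunit, had 197, 219 and 452 CPM against 167, 126 and 230.1 CPM, and its log2 fold change of 0.67 (SE 0.17) was the highest of any canonical gene. ATPsynE, another membrane subunit, had 217, 229.8 and 438 CPM against 179.7, 160.5 and 261 CPM, a log2 fold change of 0.51 (SE 0.14). ATPsynB, of the peripheral stalk that holds the head still, had 349, 369 and 993 CPM against 288, 256 and 538 CPM, a log2 fold change of 0.56 (SE 0.16). All 3 genes passed the DESeq2 Wald test, with adjusted p-values of 0.0154, 0.0251 and 0.0226. Of the other genes, ATPsynD of the peripheral stalk and ATPsynF of the membrane part passed it, and ATPsynO, ATPsynCF6, ATPsyngamma and ATPsyndelta did not. The log2 fold changes of these 6 genes ran from 0.46 to 0.59.

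The differences within a pair were even across the canonical genes. In pair 1 they ran from 0.03 to 0.35 on the log2 scale, in pair 2 from 0.19 to 0.87 and in pair 3 from 0.35 to 1.08. Pair 1 thus held a difference of the same sign but of small size, with a median of 0.16 against 0.64 and 0.88 in the other pairs. The log2 differences of Pi3K92E in pairs 1, 2 and 3 were 3.46, 3.79 and 1.87. Pair 3 thus had the largest subunit median and the smallest Pi3K92E difference, and a relation between the 2 was not tested. The SD over the 31 genes was 0.08, 0.17 and 0.14 in the 3 pairs, against 0.49, 0.81 and 0.63 over all tested genes. The 31 genes had at least 1353 counts in every library, whereas all tested genes include low ones. The SDs were not compared at like counts. Small SDs within a pair were not particular to these subunits. The SD was 0.10, 0.12 and 0.06 over complex II genes and 0.13, 0.21 and 0.12 over nuclear complex I genes. Over mitochondrial ribosomal protein genes it was 0.15, 0.26 and 0.21.

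Summed over the 31 canonical genes, the libraries of FB-Dp110DN held 13252, 14989 and 36006 CPM and those of FB-GAL4 11876, 10230 and 18704 CPM. Replicate 3 of FB-GAL4 exceeded replicates 1 and 2 of FB-Dp110DN both in this sum and in 22 of the 31 genes taken singly, and so the groups overlapped. With replicates 1 and 2 alone, both FB-Dp110DN libraries were above both FB-GAL4 libraries in all 31 genes, against 31.9% of all genes. Without replicate 3 the median log2 fold change of the canonical genes was 0.39, with a range from 0.13 for ATPsynC to 0.59. The medians of that fit were 0.46 for complex III, 0.40 for complex IV and 0.35 for ATP synthase, the last lower than with all libraries by a factor of over 1.5. In that edgeR fit no member of 36 tested passed an adjusted p of 0.05, where 3.7% of all genes were called higher and 4.63% lower.

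**Figure D3:**
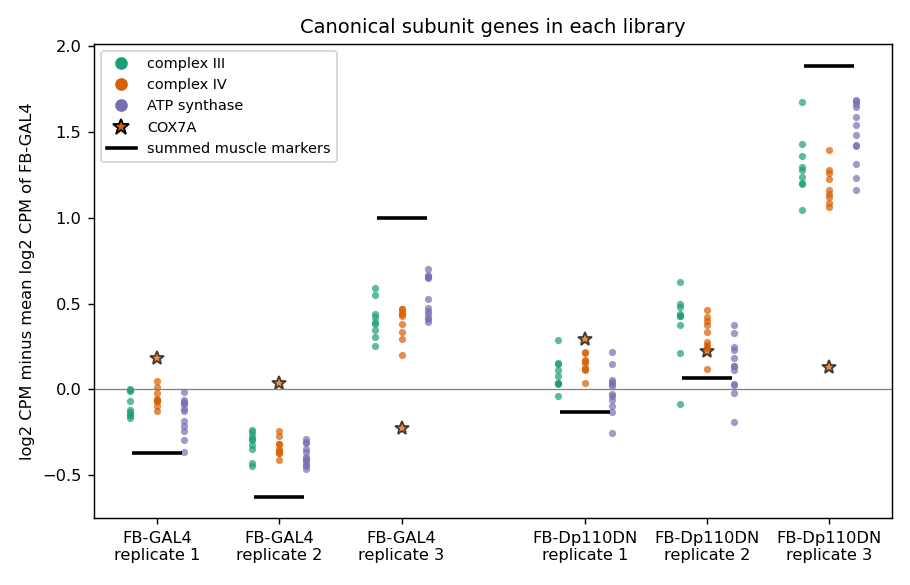
Log2 CPM of each canonical gene in each library, relative to its mean over the FB-GAL4 libraries, with the summed muscle markers as black bars. Replicate 3 of FB-Dp110DN is the highest library for 30 of 31 genes, and COX7A, marked by a star, is the exception; the muscle sum is highest in the same library.

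The assemblies were not affected alike by the replicate. ATP synthase genes held 60.6%, 58.3% and 69.4% of the canonical CPM in FB-Dp110DN and 61.6%, 62.2% and 67.1% in FB-GAL4. Replicate 3 exceeded the mean of replicates 1 and 2 by a median log2 difference of 1.42 in ATP synthase, 1.01 in complex III and 0.87 in complex IV in FB-Dp110DN. In FB-GAL4 the same medians were 0.75, 0.59 and 0.60.

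Muscle markers moved with the subunit genes. Of 22 tested muscle markers, 20 had an unadjusted edgeR p under 0.05 and a higher estimate, against 13.7% of all genes. Their median log2 fold change was 0.61. The marker fln, which encodes the flight muscle protein flightin, had 69.0, 81.8 and 1724 CPM in FB-Dp110DN and 47.7, 45.2 and 928 CPM in FB-GAL4. The marker Act88F was the 1 with an estimate below 0, at -0.01 (SE 0.36). It had 47.3, 100.3 and 4624 CPM against 44.9, 201.5 and 2500 CPM, and so was lower in pair 2. The summed markers stood at 13276, 15194 and 53721 CPM against 11231, 9406 and 28969 CPM. Per CPM of muscle markers, the canonical subunit genes stood at 0.998, 0.987 and 0.670 CPM in FB-Dp110DN and at 1.06, 1.09 and 0.646 CPM in FB-GAL4. That ratio was lower in FB-Dp110DN in pairs 1 and 2 and higher in pair 3. Fat body markers also had mostly higher estimates, 9 of 11 tested, with a median of 0.56. They summed to 71462, 75399 and 58479 CPM in FB-Dp110DN and to 69918, 55302 and 26840 CPM in FB-GAL4. Gut protease markers had 13 higher estimates of 20, with a median of 0.21. Their sums were 27288, 27159 and 6509 CPM against 22912, 15579 and 6681 CPM. All 7 tested neuronal markers had higher estimates, with a median of 0.47 and sums of 191 to 234 CPM against 136 to 168 CPM. Germline markers were mostly lower, 11 of 12, with a median of -0.70 and sums of 600.2 to 1378 CPM against 1314 to 1450 CPM. The part of RNA from these other tissues in the subunit difference was not tested, and in such bulk samples fewer cells of a type and less RNA per cell cannot be told apart.

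The mitochondrial genome encodes partners of the same assemblies, and all 6 had higher estimates. The complex III partner mt:Cyt-b had 7201, 8249 and 15441 CPM against 6820.4, 5388 and 8969 CPM. Its log2 fold change was 0.49 (SE 0.31). The complex IV genes mt:CoI, mt:CoII and mt:CoIII, which form the catalytic core, had log2 fold changes of 0.52 (SE 0.39), 0.54 (SE 0.24) and 0.52 (SE 0.35). The most abundant, mt:CoI, had 16372, 19394 and 26967 CPM against 14994, 11465 and 17084 CPM. These 3 genes passed the DESeq2 Wald test, with adjusted p-values of 0.0409, 0.0393 and 0.0446, and mt:Cyt-b did not, at 0.0560. The ATP synthase partner mt:ATPase6 had the smallest log2 fold change, 0.31 (SE 0.23). For mt:ATPase8 it was 0.77 (SE 0.24), on only 65 to 279 counts per library. The median over the 6 genes was 0.52.

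Other genes of the pathway were read from lists. All 4 tested complex II genes, which encode succinate dehydrogenase, had higher estimates with an unadjusted edgeR p under 0.05 and a median log2 fold change of 0.69. All 4 also had an adjusted p under 0.05 in DESeq2, where 6.82% of all genes were called higher. SdhA, the flavoprotein, had 568, 805 and 847 CPM against 433, 420.5 and 479 CPM. Its groups did not overlap, against 11.6% of all genes that were higher without overlap. Nuclear complex I genes had a median of 0.48, with 27 of 33 at an unadjusted p under 0.05, all higher. Other ATP synthase and carrier genes had a median of 0.26 and a range from -0.03 to 0.92. Of 8 tested, 6 had higher and 2 lower estimates, and 2 were higher at an unadjusted p under 0.05. In that list the epsilon subunit of ATP synthase, sun, had a log2 fold change of 0.51 (SE 0.14). The ADP/ATP carrier sesB had 0.49 (SE 0.25), and both genes lay above the list median. Assembly factors of complex III and IV had a median of 0.18, with 4 of 11 at an unadjusted p under 0.05, all higher. Their median was 0.39 without replicate 1, 0.12 without replicate 2 and 0.06 without replicate 3. Of 70 mitochondrial ribosomal protein genes, 1 was higher and 1 lower at an unadjusted edgeR p under 0.05. Over all tested genes 13.7% were higher and 12.5% lower at that p, which holds beside each list above. The median of the ribosomal protein genes was -0.03. That median has no stable sign, at 0.01 under DESeq2 size factors, 0.001 under the DESeq2 Wald test, 0.02 without replicate 1 and without replicate 2, and -0.12 without replicate 3.

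Among the 9 tested regulators of respiratory genes, 0 were higher and 2 lower at an unadjusted edgeR p under 0.05, where 12.5% of all genes were lower. One of these was srl, the fly homologue of the coactivator PGC-1, which is named here because of its values. It had 146, 109 and 133 CPM in FB-Dp110DN and 186, 238 and 194 CPM in FB-GAL4, so the groups did not overlap, as in 21% of all genes in that direction. The log2 fold change of srl was -0.67 (SE 0.18), with an adjusted p of 0.153 in edgeR and 0.0301 in DESeq2. Without replicate 3 srl passed the edgeR test, at -0.73 and an adjusted p of 0.0253, where 4.63% of all genes were called lower. The prior degrees of freedom of that fit were infinite, against 4.10 with all libraries, where 0 genes were called lower. The gene srl did not pass without replicate 1 or without replicate 2, at edgeR adjusted p-values of 0.181 and 0.388. A further pair of genes is named for the same reason. The phosphate carrier gene Mpcp1 had a log2 fold change of 0.92 (SE 0.21), and Ttc19, a complex III assembly factor, of 0.66 (SE 0.17). Both had an edgeR adjusted p of 0.153. Mpcp1 had 291, 409 and 1957 CPM in FB-Dp110DN and 225, 168 and 911 CPM in FB-GAL4. Its replicate 3 exceeded the mean of replicates 1 and 2 by log2 differences of 2.50 and 2.23.

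**Figure D4:**
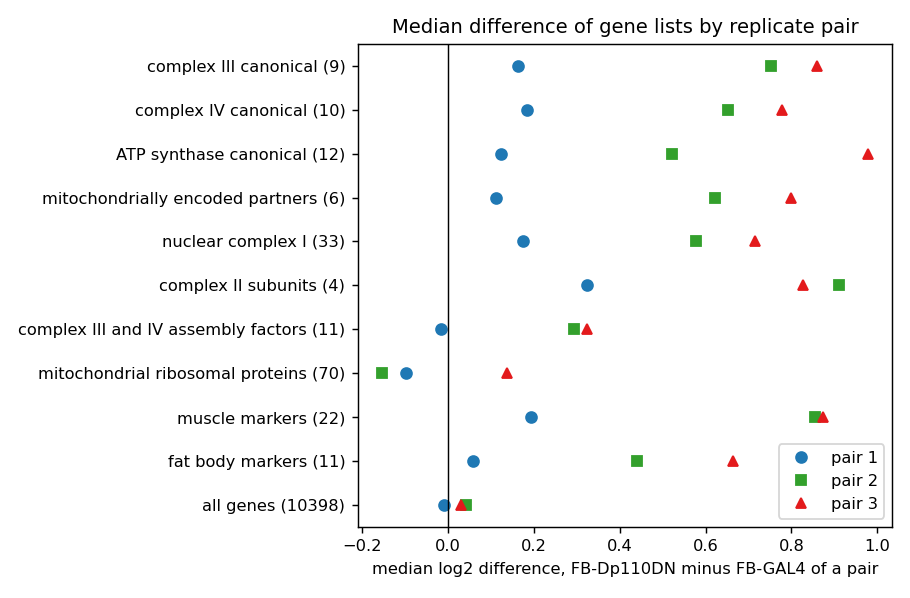
Median log2 difference of FB-Dp110DN minus FB-GAL4 within each replicate pair, for the canonical genes of each assembly and for other lists, with the number of tested genes in parentheses. The subunit lists lie right of 0 in all 3 pairs and lowest in pair 1, as do the muscle markers, whereas the medians of mitochondrial ribosomal proteins are -0.10, -0.15 and 0.14 and those of all genes lie near 0.

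Most of the paralogues were barely detected in these female fat bodies. UQCR-14L, COX6CL and ATPsynCF6L had 0 counts in all 6 libraries, which allows up to 3 counts in each. COX6AL2 and ATPsynGL had at most 1 count in a library, and COX4L had 3, 1 and 3 counts in FB-Dp110DN and 1, 0 and 0 in FB-GAL4. No fold is given for these, as both groups lie at or under 3 counts. ATPsynbetaL, COX7AL and ATPsynepsilonL reached 6, 6 and 7 counts at most and were not tested. In all, 6 of the 15 paralogues passed the filter on low counts, and a low gene can pass it through the group in which it is higher.

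Levels were compared between genes as CPM per kb of exonic length. In FB-GAL4, ATPsynbeta had the highest level of the canonical genes at 1173 ± 407 CPM per kb (SD, n = 3). ATPsynC followed at 930 ± 424 CPM per kb and blw at 735 ± 320 CPM per kb. Each differed from its neighbour in that order by less than the SDs. These SDs include the rise in replicate 3 that the genes shared, and within each single library the order was the same. COX5A led complex IV at 554 ± 161 CPM per kb and UQCR-14 led complex III at 476 ± 114 CPM per kb. The paralogues stood far below their canonical genes. Per kb, COX6AL was at 0.180% to 0.402% of levy and COX5BL at 0.268% to 0.949% of COX5B in single libraries. ATPsynbetaL was at most 0.00958% of ATPsynbeta, and UQCR-11L at 0.624% to 3.52% of UQCR-11. COX7AL2 was the exception, at 14.5% to 26.3% of COX7A in replicates 1 and 2, and at 113% and 60.3% in replicate 3 of FB-Dp110DN and FB-GAL4.

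COX5BL, the paralogue of COX5B, had 34, 58 and 55 counts in FB-Dp110DN and 12, 22 and 44 in FB-GAL4. In CPM its groups did not overlap, and the fit gave 1.04 (SE 0.40) on the log2 scale, at an edgeR adjusted p of 0.180. COX6AL had 19, 18 and 32 counts against 14, 12 and 14, also without overlap in CPM. Its log2 fold change was 0.87 (SE 0.45), at an edgeR adjusted p of 0.256, and its pair 2 differed by only 0.10. Of all tested genes, 11.6% were higher without overlap. UQCR-11L had 16, 15 and 12 counts against 21, 11 and 11, and a log2 fold change of 0.16 (SE 0.44). UQCR-6.4L had 7, 19 and 12 counts against 9, 4 and 15, and a log2 fold change of 0.50 (SE 0.59). The errors of the last 2 genes exceeded their estimates, and no difference was detectable at this depth. Reads that fit both a paralogue and its partner could be split between them.

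Cyt-c-d (FBgn0086907, arm 2L), the distal cytochrome c gene, is known in Drosophila for its role in caspase activation during sperm maturation. It had 9.25, 10.4 and 12.2 CPM in FB-Dp110DN and 9.18, 6.08 and 9.40 CPM in FB-GAL4. The groups overlapped. Replicate 3 exceeded the mean of replicates 1 and 2 by log2 differences of 0.32 in FB-Dp110DN and 0.33 in FB-GAL4. The estimate was a log2 fold change of 0.39 (SE 0.21), with an unadjusted p of 0.116 and an adjusted p of 0.278 in edgeR. It was 0.61 without replicate 1 and 0.20 without replicate 2.

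**Figure D5:**
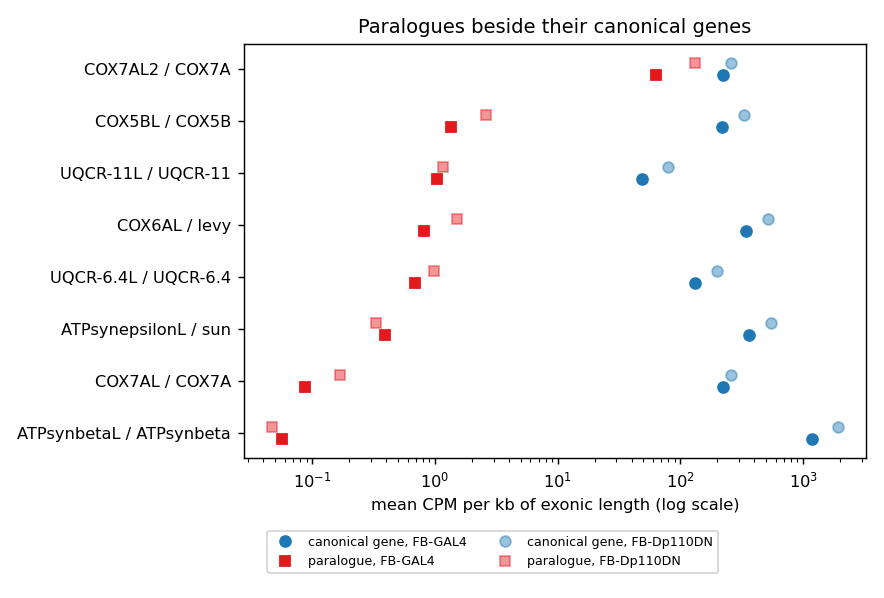
Mean CPM per kb of exonic length, on a log scale, of each paralogue with over 3 counts in some library and of its partner gene (Cyt-c-d, which has no measured partner, is not drawn), in FB-GAL4 and FB-Dp110DN. COX7AL2 reaches 63.6 CPM per kb in FB-GAL4, whereas the other paralogues drawn stay between 0.0568 and 1.34 CPM per kb there.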

How the data were processed

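The authors aligned reads with TopHat2 2.0.11 to the fly genome BDGP5 and counted them per gene with HTSeq; the strand setting is not given in the sources used here, so overlapping and antisense genes are uncertain. The deposited table holds raw counts per gene for 6 libraries, which were used as they stand, and the columns of the authors' own DESeq2 comparison, which were not used. Labels give 5 flies per sample, and the methods give another number. Of 15682 identifiers, 15002 matched a symbol; the other 680 held 5.91% to 7.11% of counts and stayed in the tests. Exonic lengths came from the BDGP6 annotation; no coordinates were taken from it. Protein and promoter sequences and their motifs were not analysed here.

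Counts were tested with the edgeR 4.0.16 quasi-likelihood test (R 4.3.3, TMM factors, filterByExpr, the form without legacy estimation), which left 10398 genes, with Benjamini-Hochberg adjustment over all of them and a threshold of 0.05. CPM used TMM-scaled library sizes, and pair differences used log2 CPM with a prior count of 2. Counting error is all that the floor of 3 counts covers. The model had the replicate number as a block, as the study paired mutant and control samples by processing day. The pairing rests on the replicate numbers in the titles, since FB-GAL4 replicates 2 and 3 share a description, and on preparation dates that differ between samples. Deviations from the group means correlated at 0.416, 0.190 and 0.590 across genes for same-numbered libraries 1, 2 and 3, and every one was over 0.1. Libraries of unlike number reached 0.384 (FB-Dp110DN replicate 1 with FB-GAL4 replicate 2) and 0.221 (FB-Dp110DN replicate 2 with FB-GAL4 replicate 1), so the check sets replicate 3 apart but does not separate pairs 1 and 2.

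The alternatives were a model with no block, the Wald test of DESeq2 1.42.0, its size factors in edgeR, all genes kept, a minimum of 10 counts per library, fits lacking 1 replicate pair, a threshold of 0.1, and removal of mitochondrial-genome genes. The code was tested on simulated counts. Genes named with values in each library are fixed core subunits and paralogues with over 3 counts. They also include the 3 members of smallest p and the member of lowest log2 fold change in each assembly. SdhA, srl, Mpcp1, Ttc19, fln, Act88F, sun and sesB were added after their values were seen. The members and the lists were chosen with earlier results of these data known.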

Additional observations from a re-analysis of the deposited data

How the results depend on the processing

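The count of members past an adjusted p of 0.05 was 0 in the edgeR test under every alternative run, and 23 of 33 under the DESeq2 Wald test, all higher. Against 29 members at an unadjusted p under 0.05, the edgeR model without the replicate block held 1. The fits without a replicate pair held 30 without replicate 1, 4 without replicate 2 and 10 without replicate 3. In the last of these fits 13.1% of all genes were higher at that p. At an adjusted p under 0.05 the count over all genes was 3. It was 0 without the replicate block, 5 without a filter, 6 at an adjusted p of 0.1 and 969 under the DESeq2 Wald test. Across the fits without a replicate pair it ran from 0 to 862. The high value came without replicate 3, where the prior degrees of freedom were infinite against 4.10 with all libraries. The median log2 fold change of the tested members, 0.56, ran from 0.40 to 0.76 across these fits. Pi3K92E, estimated at 3.05 on the log2 scale with an adjusted p of 0.153 in edgeR, passed under the DESeq2 Wald test, at 3.08 with an adjusted p of 5.1e-17. Across the fits without a replicate pair it ran from 2.66 to 3.63 and passed without replicate 3. Of 368 combinations of member and alternative, 344 gave the same call, 23 newly passed, all under the DESeq2 Wald test, and 1 reversed. That was UQCR-6.4L, which ran from -0.0087 without replicate 2 to 0.65 without replicate 1 and was not tested without replicate 3 or at a minimum of 10 counts. Depth limits the paralogues, most of which had under 60 counts per library.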
